A study of Mus musculus with 48 samples.

Results

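The 26S proteasome is the protease that removes ubiquitin-tagged proteins in the cytosol and nucleus. Its core particle is a barrel of outer alpha rings (Psma genes), which gate the entrance, and inner beta rings (Psmb genes), of which Psmb5, Psmb6 and Psmb7 carry the cutting sites. Lymphocytes can build in the interferon-inducible immunosubunits Psmb8, Psmb9 and Psmb10 at those same positions, which changes the peptides passed to MHC class I molecules. A regulatory cap of ATPases (Psmc genes), which unfold the substrate, and non-ATPase subunits (Psmd genes), which bind and remove ubiquitin, sits on the barrel, and the activators Psme1 and Psme2 (together PA28), Psme3 and Psme4 are caps of another kind.

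The genes were taken by symbol: a Psma, Psmb, Psmc, Psmd or Psme name followed by a number matched 43 of the 53345 genes in the deposited matrix. A mean of at least 1 CPM (counts scaled to library size) over the 32 Treg libraries was required, and 41 genes passed. The thymic core subunit Psmb11 (0.066 CPM) and the germline core subunit Psma8 (0.11 CPM) did not, while the kept gene nearest to the limit was Psmd10 at 19.8 CPM. The 41 genes comprise 7 alpha, 7 constitutive beta and 3 immunosubunit genes of the core, 6 ATPases and 14 non-ATPases of the cap, and 4 activators. All 41 were measured in every Treg library and passed the expression filter of the tests.

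Female C57BL/6 mice of 8 to 12 weeks received an isotype control antibody (isotype) or an MHC class II blocking antibody (MHC II block) in 2 intraperitoneal doses of 500 µg, and then PBS or 25 µg of human IL-2 fused to an antibody Fc part, once under the skin. The IL-2 was wild type (WT IL-2), H16R, a mutein with 1 substitution, or 3x, a strongly attenuated mutein with 3 other substitutions. Spleens were taken on day 4, and poly(A) RNA was sequenced from Tregs (the bead-bound CD25+ fraction) of 4 mice in each of 8 groups and from Tcons (the CD25- flow-through) of 2 of the same mice in each group, so there were 16 groups in all. No mouse carried a transgene, and no library was pooled, but the human IL-2 acted on mouse receptors and the Tregs were enriched on beads rather than sorted to purity. A pair of isotype WT IL-2 Treg libraries carries the same number in the labels, and these are called replicates 3a and 3b; they were counted as 2 mice, which the labels do not settle.

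The Treg libraries held 18.28 to 51.24 M (megacounts) of estimated counts and the Tcon libraries 31.31 to 51.95 M, with the lowest Treg totals in the isotype PBS group (18.28 to 34.58 M). Summed Treg markers (Foxp3, Il2ra, Ctla4, Ikzf2, Tnfrsf18) reached 2427 to 4476 CPM in Tregs against 343.1 to 1448 CPM in Tcons, the highest Tcon value being in isotype WT IL-2 replicate 2. A pair of Treg libraries stood apart by other cell types: isotype PBS replicate 1 held 681.6 CPM of 6 summed B cell markers against a Treg median of 69.6, and MHC II block WT IL-2 replicate 1 held 624.2 CPM of these and 535.6 CPM of 6 summed myeloid markers against a myeloid median of 30.9. Counts of called genes are given without this pair where they differ by more than 1.5 times. In bulk libraries a lower level in each cell cannot be told apart from fewer cells of the type that holds the RNA.

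Stretches of 120 bases before the annotated start (RefSeq, GRCm38.p6) are shown for the pair of cap subunits that changed most with the muteins (Psmd13, Psmd8), for a constitutive beta subunit and the immunosubunit whose ratio moved most (Psmb5, Psmb9), and for a member that did not rise (Psmd5). Capitals mark the only matches within these stretches to the motifs searched. These were the antioxidant-response type TGACNNNGC, the interferon-response type (GAAA, any 2 bases, GAAA) and the CCAAT box CCAAT, each on both strands.
Psmd13, chr7:140882274-140882393, plus strand: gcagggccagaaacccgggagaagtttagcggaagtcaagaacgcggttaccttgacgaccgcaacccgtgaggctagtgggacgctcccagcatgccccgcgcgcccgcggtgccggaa
Psmd8, chr7:29180674-29180793, minus strand: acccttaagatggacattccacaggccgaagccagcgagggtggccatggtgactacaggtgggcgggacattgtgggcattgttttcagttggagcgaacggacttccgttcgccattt
Psmb5, chr14:54617996-54618115, minus strand: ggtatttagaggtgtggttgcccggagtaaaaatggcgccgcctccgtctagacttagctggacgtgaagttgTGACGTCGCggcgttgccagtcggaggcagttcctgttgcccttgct
Psmb9, chr17:34187331-34187450, minus strand: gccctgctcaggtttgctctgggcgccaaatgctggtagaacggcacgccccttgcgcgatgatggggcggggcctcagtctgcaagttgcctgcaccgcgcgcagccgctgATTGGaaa
Psmd5, chr2:34870963-34871082, minus strand: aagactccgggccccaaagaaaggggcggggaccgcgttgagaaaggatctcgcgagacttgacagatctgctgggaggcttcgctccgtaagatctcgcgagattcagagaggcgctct

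RefSeq promoters were found for 35 of the 41 genes, 38 promoters in all; Psmb1, Psmb2, Psmb7, Psmc3, Psmd3 and Psmd7 had none in the table. Over 250 bases before the start, the antioxidant-response type motif stood in 5 member promoters (13.2%, against 10.2% of 32851 promoters): those of Psmb5, Psmb6, Psmc6, Psmd9 and Psmd12. The interferon-response type motif stood in 3 (7.89% against 2.98%), those of Psmb3, Psmd4 and Psmd9, and none of these genes is an immunosubunit. The CCAAT box stood in 13 (34.2% against 33.8%). These are matches of letters and no evidence of binding.

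Proteasome genes were expressed at very unequal levels, and the order followed their roles only in part. On the per-length scale (deposited FPKM, mean of 32 Treg libraries), the PA28 pair was highest, Psme1 at 294 ± 21 (SD) and Psme2 at 257 ± 45, followed by the immunosubunit Psmb8 at 194 ± 22. Core genes lay between 45.8 (Psma2) and 118 (Psmb3) apart from Psmb8. The lowest were Psmd10 (13.8 ± 1.1), Psme4 (13.1 ± 1.9), Psmd5 (8.38 ± 0.62) and Psmd9 (8.32 ± 0.75), and the means differed by less than their SD within the pair Psmd10 and Psme4 and within the pair Psmd5 and Psmd9. Psmd5, Psmd9 and Psmd10 are chaperones of cap assembly that leave the finished particle, so the non-ATPase name covers genes of unlike function. The ratio of Psmb8 to its constitutive partner Psmb5 was over 2.6 in every Treg library, whereas that of Psmb9 to Psmb6 was 0.89 to 1.59 and that of Psmb10 to Psmb7 was 0.91 to 1.43.

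**Figure D1:**
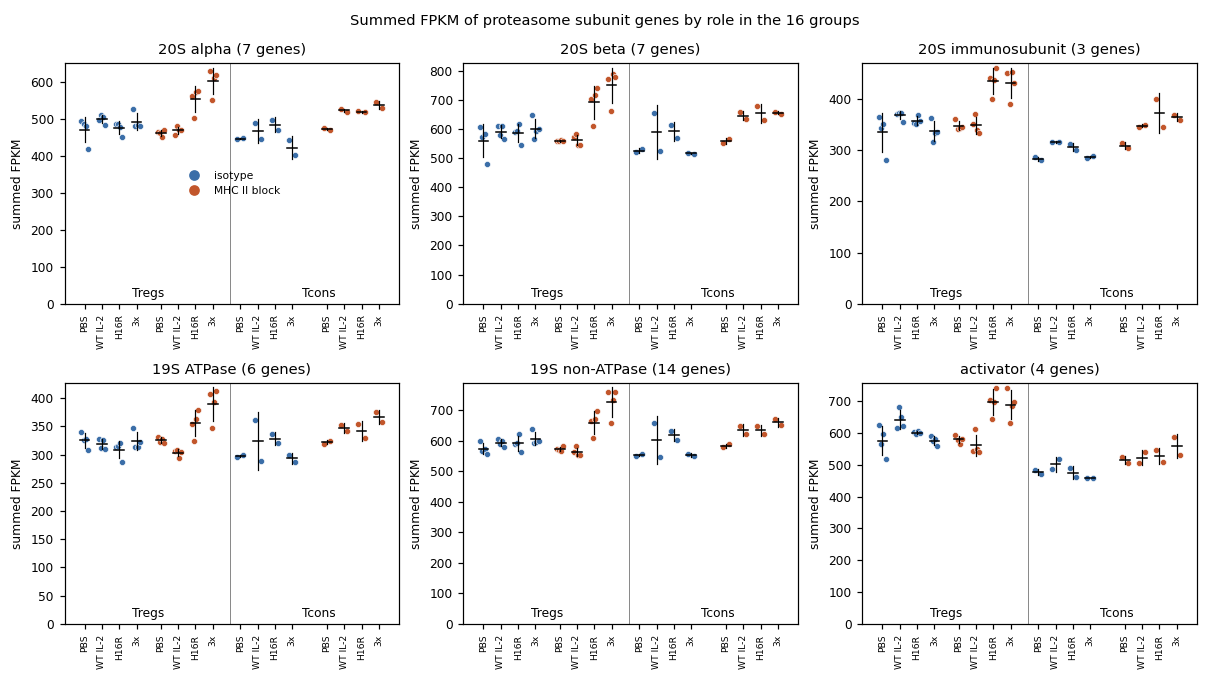
Summed FPKM of the genes of each role (1 panel per role, 20S for the core and 19S for the cap, the number of genes in its title) in each library of the 16 groups. Points are libraries, black bars the mean and SD, blue isotype and orange MHC II block, with Tregs left and Tcons right of the grey line and the treatment on the x axis. The highest Treg mean lies in the MHC II block 3x group for alpha subunits (603 ± 36), beta subunits, ATPases and non-ATPases, and in the MHC II block H16R group for immunosubunits and activators.

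Summed over all 41 genes, the FPKM of Tregs was 2838 ± 199 with PBS under isotype, against 3010 ± 64 for WT IL-2, 2919 ± 89 for H16R and 2937 ± 119 for 3x (n = 4 each), and the libraries of the 4 groups overlapped. Under MHC II block the sum was 2846 ± 29 with PBS and 2806 ± 87 with WT IL-2, but 3391 ± 214 with H16R and 3589 ± 238 with 3x. The lowest mutein library of that arm (H16R replicate 2, 3090) was above every PBS and WT IL-2 library of the same arm, whose highest was 2934. No test was run on these sums.

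The first question was which proteasome genes changed with each IL-2 molecule when TCR contact with MHC II was left intact. A gene is called when its adjusted p in edgeR's quasi-likelihood test (Benjamini-Hochberg over all 12392 genes tested) was under 0.1. Changes are log2 fold changes ± standard error, of 4 against 4 mice. Each standard error is the size of the change divided by the square root of the test's F statistic. In Tregs its spread comes from the model of all 32 libraries. Under isotype, WT IL-2 raised 14 of 41 members and lowered 5 (26% and 26.2% of all genes tested), H16R raised 15 and lowered 5 (31.4% and 32.8%), and 3x raised 20 and lowered 5 (31.3% and 32.3%). The median member changed by 0.06, 0.06 and 0.11 in this order, against -0.01 over all genes for each molecule. The share of members raised by WT IL-2 or H16R was thus close to that of all genes. The share lowered was smaller than that of all genes for each molecule. Scaling by total counts gave 10 raised and 10 lowered for H16R and 12 raised and 10 lowered for 3x. Fitting only the groups compared gave 15 calls in all for 3x. Since the 3 molecules were set against the same 4 PBS mice, their lists are not independent.

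Psmd13, a lid subunit of the cap, rose most with 3x under isotype. Its CPM was 56.5, 53.7, 52.3 and 53.2 in the 4 PBS libraries, 68.7, 65.3, 65.8 and 62.8 with WT IL-2, 70.3, 69.1, 78.5 and 64.3 with H16R, and 82.9, 68.5, 75.7 and 77.2 with 3x. Every treated library was above every PBS library. The change was 0.28 ± 0.06 with WT IL-2 (adjusted p = 0.00077), 0.39 ± 0.06 with H16R (adjusted p = 1.0e-05) and 0.50 ± 0.06 with 3x (adjusted p = 2.4e-07). Psmd8, another lid subunit, rose by 0.27 ± 0.07, 0.38 ± 0.07 and 0.37 ± 0.07. The alpha subunit Psma4 rose by 0.33, 0.34 and 0.38 (SE 0.06 each), its PBS libraries reading 71.8 to 89.9 CPM and all 12 treated libraries 99.1 to 118.9 CPM.

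Activators split. Psme2 rose with WT IL-2 by 0.41 ± 0.07 (adjusted p = 1.3e-05), with H16R by 0.33 ± 0.07 and with 3x by 0.26 ± 0.07, while its PA28 partner Psme1 changed by 0.05 ± 0.06, -0.01 ± 0.06 and -0.11 ± 0.06. The fall of Psme1 with 3x was called (adjusted p = 0.098) but lost without any one of 7 of the 8 libraries (highest adjusted p = 0.366, without isotype PBS replicate 1). Psme4, a nuclear activator also called PA200, rose with every molecule, by 0.28 ± 0.07, 0.40 ± 0.07 and 0.40 ± 0.07. Psme3, the nuclear PA28 gamma, fell with H16R by 0.17 ± 0.04 (adjusted p = 0.00092).

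The 2 members lowest on the FPKM scale went down. Psmd9 read 25.4, 24.9, 25.1 and 23.4 CPM with PBS and 19.2 to 22.3 CPM in the 12 treated libraries, with no overlap, and fell by 0.24 ± 0.05 with WT IL-2, by 0.33 ± 0.05 with H16R and by 0.25 ± 0.05 with 3x (adjusted p = 0.00038, 3.9e-06 and 0.00013). Psmd5 read 36.6, 39.2, 41.8 and 43.6 CPM with PBS and fell by 0.19 ± 0.05 with WT IL-2 (34.4 to 35.9 CPM) and by 0.16 ± 0.05 with H16R (35.0 to 38.2 CPM). Its change with 3x of -0.11 ± 0.05 was no longer called without isotype PBS replicate 3 or 4 (adjusted p = 0.165 and 0.267). Both are assembly chaperones, as is Psmd10, which differed by 0.17 ± 0.06 with WT IL-2, a call lost when certain single libraries were left out.

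Immunosubunits did not move as one. Psmb9 read 125.4, 106.5, 111.1 and 80.4 CPM with PBS, 135.0 to 143.7 CPM with WT IL-2, 140.2 to 147.3 CPM with H16R and 115.8 to 127.3 CPM with 3x. It rose by 0.40 ± 0.08 (WT IL-2), 0.44 ± 0.08 (H16R) and 0.22 ± 0.08 (3x), and the 3x libraries overlapped those with PBS. Psmb8 changed by 0.11 ± 0.06, 0.10 ± 0.06 and 0.08 ± 0.06, none called. Psmb10 changed by 0.02 ± 0.07, -0.05 ± 0.07 and -0.16 ± 0.07, the last called (adjusted p = 0.045) but not without isotype 3x replicate 2, isotype PBS replicate 1 or isotype PBS replicate 3 (adjusted p = 0.134, 0.137 and 0.217). Isotype PBS replicate 4, the library of lowest depth, was the lowest of its group for Psmb8, Psmb9 and Psmb10.

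**Figure D2:**
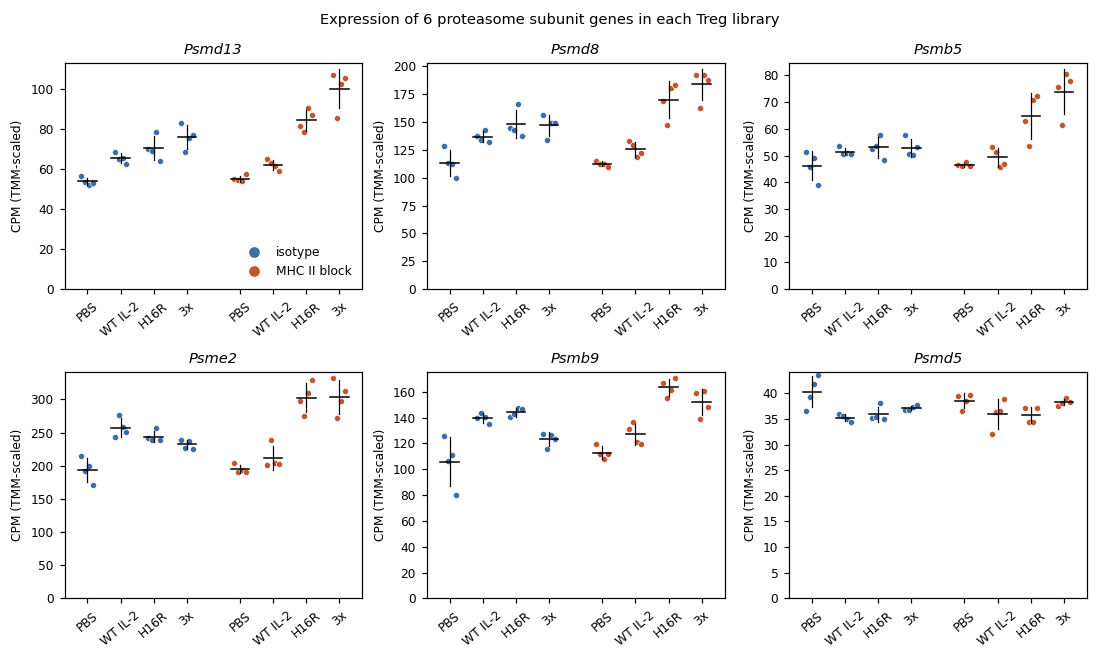
TMM-scaled CPM of 6 proteasome subunit genes in each Treg library by treatment on the x axis, with blue for isotype and orange for MHC II block. Points are mice, black bars the mean and SD of 4, and the y axis starts at 0. Psmd13, Psmd8, Psmb5 and Psme2 are highest in the mutein groups of the MHC II block arm, whereas Psmd5 stays between 32.1 and 43.6 CPM in all 8 groups.

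Under MHC II block the answer depended on the molecule. WT IL-2 raised 8 members and lowered 1 (21.9% and 13.7% of all genes tested), with a median of 0.02, which is that of all genes. Scaling by total counts turned this into 4 raised and 7 lowered, and 4 or 5 members in all were called without MHC II block PBS replicate 3 (4), PBS replicate 4 (5) or WT IL-2 replicate 1 (5), or without the pair of libraries that stood apart (5). H16R raised 34 and lowered 1 (32.7% and 33.8%), with a median of 0.24 against -0.02. The 3x mutein raised 36 (34.7% of all genes were higher and 38.3% lower), with a median of 0.36 against -0.04, and 34 of these calls held whichever library was left out.

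By role, 3x under MHC II block raised 7 of 7 alpha, 7 of 7 constitutive beta, 3 of 3 immunosubunit, 6 of 6 ATPase, 11 of 14 non-ATPase and 2 of 4 activator genes. The median change was 0.50 in the constitutive beta group, 0.36 in the immunosubunits, 0.32 in the alpha and the non-ATPase groups and 0.28 in the ATPases. Psmb6 and Psmc4 (0.20 ± 0.09 and 0.14 ± 0.06) missed the threshold without MHC II block 3x replicate 4 (adjusted p = 0.103 and 0.109). The 5 members not called were Psmd4 (0.03 ± 0.04), Psmd5 (-0.01 ± 0.05), Psmd9 (-0.04 ± 0.05), Psme1 (0.00 ± 0.06) and Psme3 (0.00 ± 0.04). Psmd4 is a ubiquitin receptor of the cap.

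Psmd13 again changed most. It read 54.9, 54.6, 54.1 and 57.4 CPM with PBS, 81.5, 78.8, 90.4 and 87.0 with H16R and 106.9, 85.7, 102.8 and 105.7 with 3x, and all 8 mutein libraries were above those with PBS or WT IL-2 in this arm. It rose by 0.61 ± 0.06 with H16R (adjusted p = 4.3e-09) and by 0.86 ± 0.06 with 3x (adjusted p = 3.0e-12), a 1.82-fold higher level. Psmd8 read 115.3, 112.7, 112.3 and 109.7 CPM with PBS and 192.4, 162.7, 192.3 and 187.3 with 3x, and rose by 0.71 ± 0.07 (adjusted p = 1.1e-09). Psmd14, the cap enzyme that cuts off ubiquitin, rose by 0.52 ± 0.05 (adjusted p = 5.6e-10), from 77.6 to 82.0 CPM with PBS to 104.0 to 122.8 CPM with 3x.

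Of the core genes, Psmb5, which carries the chymotrypsin-like site, read 46.3, 46.1, 47.6 and 46.2 CPM with PBS, 62.9, 53.6, 70.6 and 72.4 with H16R and 75.7, 61.5, 80.6 and 77.8 with 3x. Replicate 2 was the lowest in both mutein groups and still above every PBS library. The change was 0.48 ± 0.09 with H16R and 0.67 ± 0.09 with 3x (adjusted p = 2.4e-05 and 9.4e-08). Psma4 rose by 0.62 ± 0.06, Psma1 by 0.60 ± 0.05 and Psma5 by 0.59 ± 0.06 with 3x, all outer-ring genes. Among the immunosubunits Psmb9 rose by 0.54 ± 0.08 with H16R and 0.43 ± 0.08 with 3x, Psmb8 by 0.35 ± 0.06 and 0.36 ± 0.06, and Psmb10 by 0.26 ± 0.07 and 0.19 ± 0.07. The ATPase Psmc1 rose by 0.27 ± 0.06 and 0.46 ± 0.06, while under isotype it changed by -0.03 ± 0.06 and 0.03 ± 0.06.

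Psme2 read 204.1, 191.2, 193.8 and 191.2 CPM with PBS and rose by 0.64 ± 0.07 with both muteins, to 275.1 to 328.9 CPM with H16R and 271.4 to 333.1 CPM with 3x. Psme1 changed by 0.12 ± 0.06 with H16R (adjusted p = 0.072, lost when certain single libraries were left out) and by 0.00 ± 0.06 with 3x, so the pair did not change alike. Psme2 has a near-identical copy, Psme2b, between which reads could be split. Psme2b fell with 3x in this arm by 0.55 ± 0.10, and with the reads of both summed, which was tried once the values were known, the rise with 3x was 0.46 ± 0.05 (adjusted p = 2.5e-08). Psme4 rose by 0.39 ± 0.07 and 0.59 ± 0.07.

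The next question was whether the antibody changed the response. In PBS mice, MHC II block lowered 1 member, Psme3 (-0.13 ± 0.04, 6% of all genes higher and 8.13% lower), and not once isotype PBS replicate 1 or 3 was left out, while 3 were called without isotype PBS replicate 4. In WT IL-2 mice it lowered 7 members (18.2% of all genes higher and 15.3% lower), Psme2 most, by 0.28 ± 0.07. That count was 4 to 9 when 1 library was left out, 4 being without isotype WT IL-2 replicate 3a, while 11 members were called by DESeq2, 12 with all biotypes or without the CPM filter and 16 when only these groups were fitted. In H16R mice it raised 32 members (15.4% higher and 15.2% lower), with a median of 0.17 against 0.00 for all genes, and in 3x mice 35 (27.2% and 26.9%), with a median of 0.24 against 0.00. The H16R count was 18 without isotype H16R replicate 4, 20 without MHC II block H16R replicate 3 and 19 without MHC II block H16R replicate 4; none of these left a member called lower.

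Psmb5 was the member with the largest difference between antibodies in 3x mice, 0.48 ± 0.08 (adjusted p = 4.4e-05). Its isotype 3x libraries read 57.7, 50.4, 50.3 and 53.1 CPM, all below the 4 of the MHC II block arm. Psmd13 differed by 0.40 ± 0.06, Psme2 by 0.39 ± 0.07, Psmb10 by 0.38 ± 0.07 and Psmc1 by 0.36 ± 0.06. In H16R mice Psmb10 led with 0.33 ± 0.07 (adjusted p = 0.0013), from 93.5, 91.1, 102.8 and 100.2 CPM under isotype to 124.5, 114.8, 122.0 and 127.2 CPM under MHC II block, without overlap.

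The interaction asks whether the change against PBS itself differed between the arms, and it was the test of the difference. For 3x it was called higher under MHC II block for 30 members (20.3% of all genes higher and 18.7% lower): 7 of 7 alpha, 6 of 7 constitutive beta, 2 of 3 immunosubunits, 4 of 6 ATPases, 10 of 14 non-ATPases and 1 of 4 activators, with a median of 0.26. Psmb5 differed by 0.48 ± 0.12 (adjusted p = 0.0042), Psmc1 by 0.43 ± 0.08, Psma1 by 0.39 ± 0.07, Psmd1, a scaffold of the cap base, by 0.37 ± 0.07 and Psmd13 by 0.37 ± 0.09. Psmb1 and Psmb9 were not among them (0.14 ± 0.08 and 0.21 ± 0.11): they rose in both arms, and the arms were not shown to differ. Psmd9 was called (0.21 ± 0.07, adjusted p = 0.030), having fallen under isotype and not under MHC II block.

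For H16R the interaction was called higher for 19 members (10.6% and 8.47%), with a median of 0.20, among them Psmb2 (0.32 ± 0.09), Psmb10 (0.31 ± 0.10), Psmc1 (0.31 ± 0.08), Psme2 (0.31 ± 0.09) and Psmd9 (0.28 ± 0.07). This count was sensitive to single mice: 11 without isotype PBS replicate 1, 31 without isotype PBS replicate 4, 11 without isotype H16R replicate 4, 32 without MHC II block H16R replicate 2, 11 without replicate 3 and 10 without replicate 4 of that group, and 12 without the pair of libraries that stood apart. In each of these fits every call was in the direction of MHC II block. With the reads of Psme2b added, the interaction of Psme2 was 0.20 ± 0.08 for H16R (adjusted p = 0.086), 0.25 ± 0.08 for 3x, against 0.38 for Psme2 alone, and -0.27 ± 0.08 for WT IL-2. For WT IL-2 only Psme2 was called (-0.29 ± 0.09, 11.7% of all genes higher and 7.98% lower), lower under MHC II block and held in every fit that left out 1 library. The total for WT IL-2 was 3 without isotype PBS replicate 1, 2 without MHC II block WT IL-2 replicate 1, 2 or 3, and 5 without both libraries that stood apart.

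**Figure D3:**
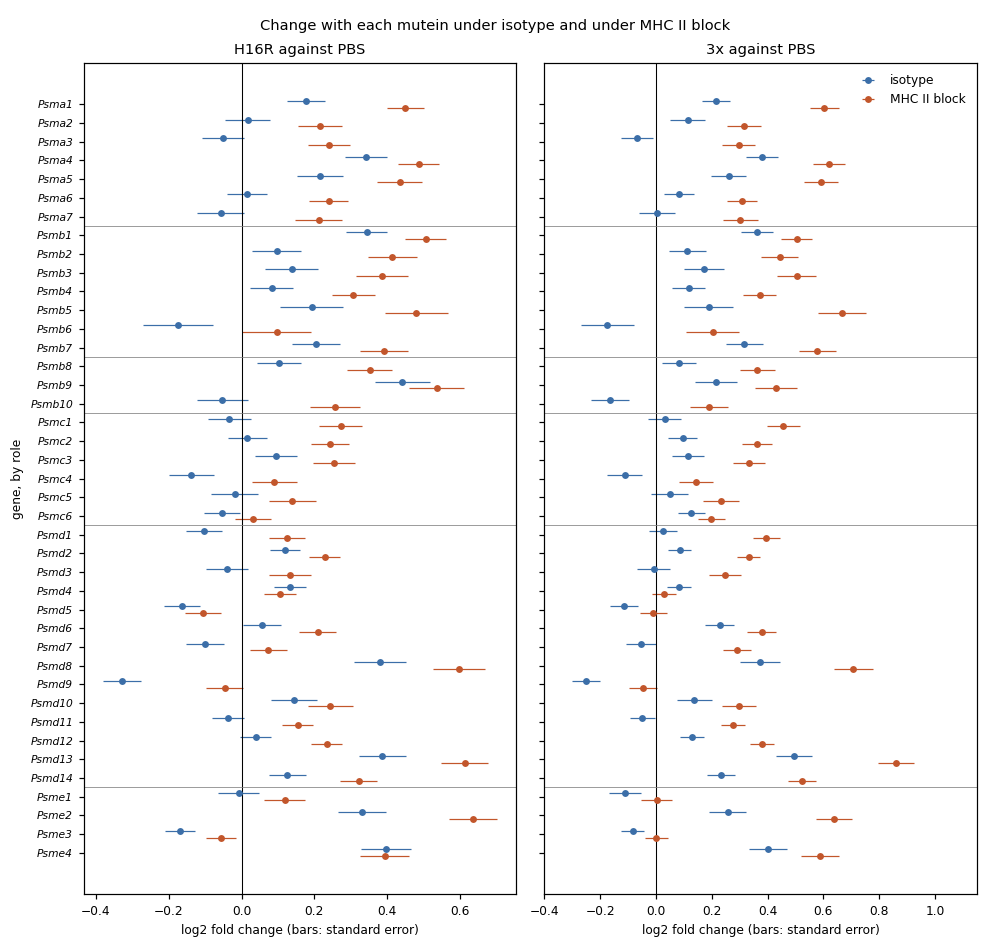
Log2 fold change of each of the 41 genes with H16R (left) and 3x (right) against PBS, with standard error bars, genes on the y axis grouped by role. Blue points are isotype and orange points MHC II block. With 3x the orange points run from -0.04 to 0.86 and lie right of the blue ones for 40 of 41 genes, the exception being Psmd4.

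Levels of other transcripts moved along. The sum of 6 genes of dividing cells (Mki67, Top2a, Ccnb1, Cdk1, Birc5, Mcm5) was 367 to 451 CPM with PBS, 452 to 604 with WT IL-2, 465 to 598 with H16R and 636 to 986 with 3x under isotype. Under MHC II block it was 413 to 443, 471 to 604, 696 to 808 and 995 to 1331 CPM in the same order. Of these genes 6 of 6 were called higher under MHC II block than isotype in H16R and in 3x mice, as were 15.4% and 27.2% of all genes.

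Markers of other cell types differed between the arms as well, and values follow in the order PBS, WT IL-2, H16R, 3x. Summed B cell markers were 123 to 682, 55.3 to 96.3, 32.1 to 42.5 and 30.2 to 41.1 CPM under isotype and 69.3 to 151, 88.1 to 624, 52.8 to 86.4 and 58.4 to 128 CPM under MHC II block. Summed myeloid markers were 30.5 to 106, 20.6 to 32.8, 17.7 to 23.5 and 21.9 to 26.9 CPM under isotype and 21.2 to 31.2, 36.2 to 536, 40.6 to 69.1 and 54.6 to 72.0 CPM under MHC II block. In both mutein groups every MHC II block library was thus above every isotype library for both lists, and the same was so for NK markers, which were 21.3 to 36.1, 12.6 to 17.6, 7.05 to 11.4 and 9.36 to 15.9 CPM under isotype and 18.7 to 26.1, 33.1 to 44.9, 18.6 to 32.5 and 21.0 to 27.4 CPM under MHC II block. CD8 T cell markers were 6.46 to 16.1, 10.0 to 12.8, 8.56 to 12.2 and 9.45 to 11.0 CPM under isotype and 7.41 to 9.11, 10.5 to 45.5, 10.0 to 15.0 and 13.4 to 35.9 CPM under MHC II block. Summed Treg markers were 2662 to 3261, 3843 to 4362, 4077 to 4123 and 4019 to 4198 CPM under isotype. Under MHC II block they were 2815 to 3040, 2427 to 3386, 3642 to 4002 and 3942 to 4476 CPM. No listed marker was at 0 throughout a group. Their part in the result was not tested.

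The molecules were then compared at the same dose and day. Under isotype, H16R and WT IL-2 differed at 0 members by edgeR (8.87% of all genes higher with H16R and 9.76% lower), at 1 member by unadjusted p under 0.05, at 0 by DESeq2 and at 1 by limma, with differences of -0.12 to 0.13. This does not show that the molecules act alike. Without isotype H16R replicate 4, 1 member was called. 3x against WT IL-2 gave 6 higher and 4 lower (16.9% and 17.7%), and 4 higher and 5 lower when scaled by total counts. Higher and held in every fit without 1 library were Psmc6 (0.23 ± 0.05), Psmd13 (0.21 ± 0.06) and Psmd6 (0.21 ± 0.05), while the 4 lower members were Psmb9, Psmb10, Psme1 and Psme2 (-0.18, -0.18, -0.16 and -0.15), each of which was lost in at least 1 such fit. The total was 5 without isotype WT IL-2 replicate 2 and 6 without WT IL-2 replicate 3b, 3x replicate 1 or 3x replicate 2. 3x against H16R gave 2 higher, Psmc6 and Psmd6 (0.18 ± 0.05 and 0.17 ± 0.05), and 1 lower, Psmb9 (-0.23 ± 0.07; 5.76% and 5.77%), and none of the 3 calls held in every fit: 0 remained without isotype H16R replicate 4 and 1 without 3x replicate 1 or 4, and 5 members were called when only these groups were fitted.

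Under MHC II block both muteins stood above WT IL-2. H16R was higher at 35 members (25.5% of all genes higher and 32% lower), with a median of 0.23 against -0.04, and 3x at 37 (30% and 38.7%), with a median of 0.34 against -0.06. Psmd13 was higher with H16R by 0.44 ± 0.06 and with 3x by 0.69 ± 0.06, Psme2 by 0.52 ± 0.07 with each, Psmd8 by 0.44 ± 0.07 and 0.55 ± 0.07 and Psmb5 by 0.40 ± 0.09 and 0.58 ± 0.08. 3x was above H16R at 14 members (12.7% higher and 12.5% lower), with a median of 0.10 against 0.00. Of these Psmd1 (0.27 ± 0.05, adjusted p = 0.00039), Psmd13 (0.25 ± 0.06), Psmd7 (0.22 ± 0.05), Psmd14 (0.20 ± 0.05), Psmc6 (0.17 ± 0.05) and Psmd12 (0.15 ± 0.04), all genes of the cap, held in every fit without 1 library. The total was 9 without MHC II block H16R replicate 2, 7 without 3x replicate 1, 22 without 3x replicate 2, 7 without 3x replicate 4 and 8 when only these groups were fitted. Psme2 and Psmb8 differed between the muteins by 0.00 ± 0.07 and 0.01 ± 0.06.

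**Figure D4:**
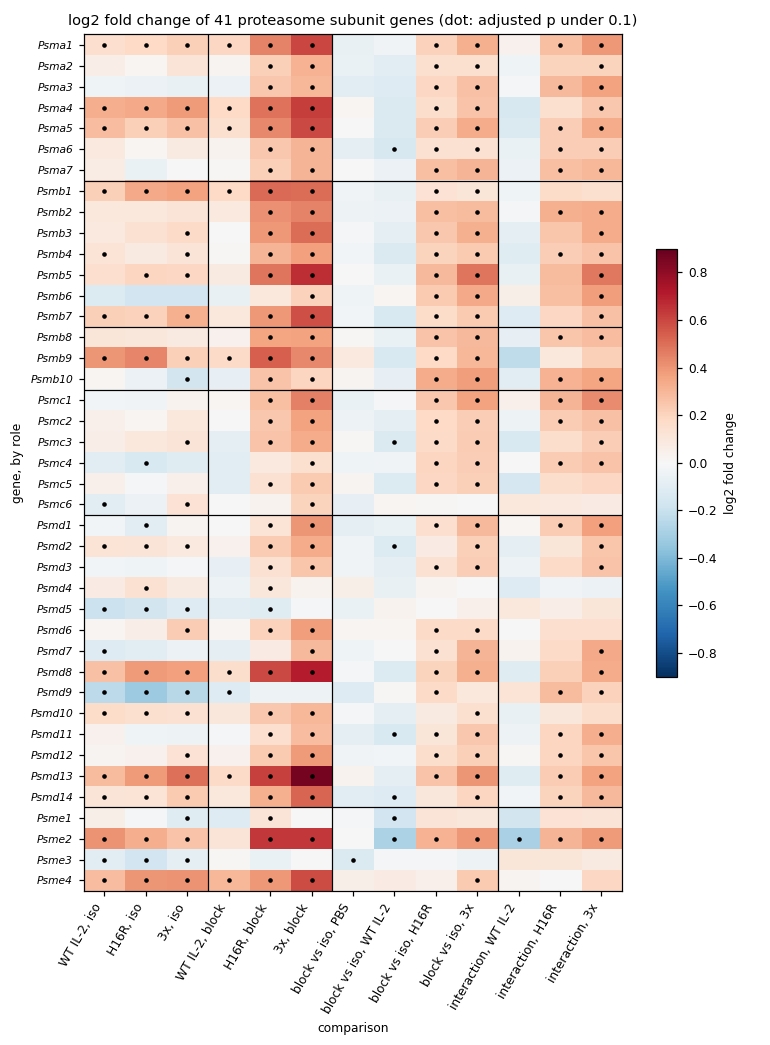
Log2 fold change (color, red higher and blue lower) of the 41 genes (rows, by role) in 13 Treg comparisons (columns: molecule against PBS in each arm, MHC II block against isotype at each treatment, and the interaction). A black dot marks an adjusted p under 0.1; the columns for H16R and 3x under MHC II block carry 35 and 36 dots, those for WT IL-2 under MHC II block and the antibody in PBS mice 9 and 1.

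Each immunosubunit replaces 1 constitutive subunit, so their ratio was compared per mouse, on deposited FPKM. In all, 30 ratio comparisons were made by two-sided exact permutation tests of 4 against 4 mice, whose smallest possible p is 0.02857 (adjusted p = 0.04762 over the 30); 19 were called at adjusted p under 0.1, and 18 of them were at that smallest value. If replicates 3a and 3b were from the same mouse, the isotype WT IL-2 comparisons would hold fewer mice. Without replicate 3a, and also without replicate 3b, 19 of the 30 were called. The pairs went in opposite directions. The ratio of Psmb9 to Psmb6 was 0.94 ± 0.05 with isotype PBS and, in the order WT IL-2, H16R, 3x, was 1.34 ± 0.05, 1.44 ± 0.10 and 1.23 ± 0.09. The 4 values were 1.02 ± 0.03, 1.20 ± 0.05, 1.39 ± 0.08 and 1.19 ± 0.06 under MHC II block. Its log2 ratio was higher than with PBS by 0.51, 0.61 and 0.39 under isotype and by 0.24, 0.45 and 0.23 under MHC II block, and in every case no treated mouse overlapped a PBS mouse (exact p = 0.02857).

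The ratio of Psmb10 to Psmb7 was lower with every molecule. It was 1.32 ± 0.08 with isotype PBS and 1.16 ± 0.05, 1.11 ± 0.07 and 0.95 ± 0.02 with the molecules in the same order. The 4 values were 1.37 ± 0.03, 1.21 ± 0.09, 1.25 ± 0.07 and 1.04 ± 0.05 under MHC II block. The log2 ratio differed by -0.19, -0.26 and -0.48 under isotype and by -0.17, -0.13 and -0.39 under MHC II block, all without overlap (exact p = 0.02857). The ratio of Psmb8 to Psmb5 was called lower with 3x, from 3.43 ± 0.13 to 3.18 ± 0.07 under isotype and from 3.43 ± 0.09 to 2.80 ± 0.16 under MHC II block (differences of -0.11 and -0.30, exact p = 0.02857), and the changes with WT IL-2 (-0.04 and -0.04) and H16R (-0.09 and -0.12) missed the threshold. Between antibodies, the log2 ratio of Psmb8 to Psmb5 differed by -0.18 in 3x mice, that of Psmb10 to Psmb7 by 0.14 in 3x and 0.17 in H16R mice, and that of Psmb9 to Psmb6 by 0.12 in PBS and -0.15 in WT IL-2 mice, all called.

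**Figure D5:**
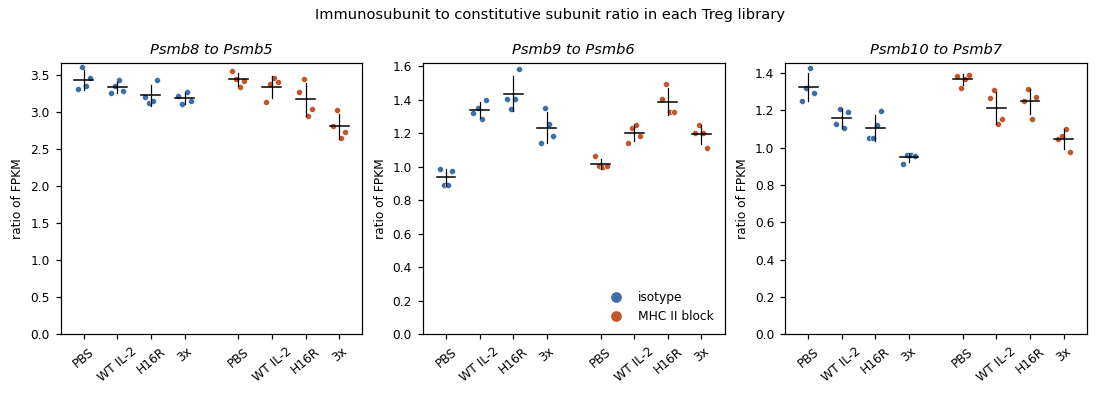
Ratio of FPKM of each immunosubunit to the constitutive subunit it replaces in each Treg library by treatment, blue for isotype and orange for MHC II block, with black bars for the mean and SD of 4 mice. Psmb9 to Psmb6 lies at 0.89 to 0.99 in isotype PBS mice and above 1.1 in every treated mouse, while Psmb10 to Psmb7 is lowest in the 3x groups, at 0.91 to 1.10.

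Genes that work with the proteasome gave a mixed picture. Pomp, the chaperone that builds the core, rose with every molecule under isotype (0.28 ± 0.07, 0.37 ± 0.07 and 0.44 ± 0.07) and by 0.57 ± 0.07 with H16R and 0.76 ± 0.07 with 3x under MHC II block, while Psmg2, a chaperone of the alpha ring, fell with 3x by 0.30 ± 0.06 and by 0.25 ± 0.06. Of the 5 assembly chaperones tested (Paaf1 was not among the symbols), 3x under MHC II block raised 2 and lowered 1, beside 34.7% of all genes higher and 38.3% lower in this comparison. Of 7 other proteasome parts and binders it raised 4 and lowered 1, Sem1, a small cap subunit outside the symbol rule, rising by 0.41 ± 0.10. Of 8 shuttle and segregase genes it raised 4 and lowered 2: Vcp, the unfoldase that extracts ubiquitin-tagged proteins, rose by 0.36 ± 0.04 and its partner Nploc4 by 0.39 ± 0.04, whereas the shuttle factor Ubqln4 fell by 0.58 ± 0.04. Uba1, the main ubiquitin-activating enzyme, rose by 0.40 ± 0.04.

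Regulators of proteasome genes did not move together. Nfe2l1, the factor that raises proteasome genes when the proteasome is impaired, changed by 0.00 ± 0.05 with 3x under MHC II block and fell by 0.15 ± 0.05 with 3x under isotype. Ngly1, an enzyme that processes Nfe2l1, rose by 0.36 ± 0.06 with 3x under MHC II block, and Ddi2, its protease, fell by 0.20 ± 0.06. Irf1, an interferon-response factor of the immunosubunit genes, rose by 0.45 ± 0.07 with H16R and by 0.27 ± 0.07 with 3x, and Nlrc5, an activator of MHC class I genes, fell by 0.21 ± 0.08 and 0.36 ± 0.08. All 6 peptide loading genes tested (Tap1, Tap2, Tapbp, Tapbpl, B2m and Erap1) were called higher with H16R and with 3x in this arm, with medians of 0.30 and 0.26, where 32.7% and 34.7% of all genes were higher. Under isotype, WT IL-2 and H16R each had 4 of the 6 called higher, and 3x had 3, where 26%, 31.4% and 31.3% of all genes were higher.

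Tregs and Tcons of the same 16 mice were tested against each other with a term for each mouse. Tregs were higher at 24 members and lower at 4 (38.2% and 37.7% of the 12844 genes tested), with a median of 0.09 against 0.00, and scaling by total counts gave 15 higher and 10 lower. Markers of other cell types differed as well: their median summed level in all Treg and all Tcon libraries was 69.6 and 244.8 CPM for B cells, 30.9 and 105.7 CPM for myeloid cells, 22.0 and 101 CPM for NK cells and 10.6 and 17.9 CPM for CD8 T cells, and their part in the result was not tested. The 3 immunosubunits and the PA28 pair were higher in Tregs. Psme2 read 197 to 345 CPM (median 245) in Tregs and 150 to 198 CPM (median 169) in Tcons, was higher in Tregs in 16 of 16 mice, and differed by 0.53 ± 0.05 (adjusted p = 1.6e-08). Psme1 differed by 0.32 ± 0.03 and Psmb8 by 0.32 ± 0.03, each in 16 of 16 mice. Psmd5 (-0.17 ± 0.03; higher in Tregs in 1 of 16 mice) and Psmd7 (-0.14 ± 0.04; 3 of 16) were lower in Tregs.

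The Treg minus Tcon difference itself was larger in IL-2 than PBS mice at 7 members and smaller at 3 (19.9% and 17.1%), and by total counts at 3 and 8. Psme4 (0.49 ± 0.11, adjusted p = 0.0055), Psme2 (0.33 ± 0.08) and Psmd9 (-0.32 ± 0.09) held whichever mouse was left out. The total was 5 without either MHC II block PBS mouse and 6 without isotype PBS mouse 1 or MHC II block 3x mouse 1.

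In Tcons, with both antibody arms in 1 fit (4 against 4 libraries), WT IL-2 raised 17 members (14.8% of 12526 genes higher and 12.4% lower), H16R 17 (16.2% and 14.9%) and 3x 2, Psmb1 and Psmb8 (4.71% and 5.17%). Psmb8 read 233 and 234 CPM in isotype PBS Tcons and 255 and 247 CPM in MHC II block PBS Tcons, 266 and 264 with isotype WT IL-2 and 288 and 295 with MHC II block WT IL-2. It rose by 0.20 ± 0.05 with WT IL-2 and by 0.21 ± 0.05 with H16R (adjusted p = 0.017 and 0.0093). Psmb5 read 63.3 and 46.7 CPM in isotype WT IL-2 Tcons, so these replicates stood apart, and 40.8 and 42.1 CPM with isotype 3x against 59.4 and 62.3 CPM with MHC II block 3x. Summed over all 41 genes, the FPKM of Tcons with 3x was 2561 and 2497 under isotype, against 2581 and 2584 with PBS. Under MHC II block it was 3204 and 3079 with 3x, against 2759 and 2760 with PBS. The fit takes 1 change with 3x over both arms, so it cannot show a change that differs between them. The arms were not tested against each other in Tcons. Scaling by total counts gave 10 calls for WT IL-2, and DESeq2 gave 4 for 3x.

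Dividing-cell genes in Tcons summed to 438 to 487 CPM with PBS, 492 and 896 with WT IL-2, 702 and 715 with H16R and 274 and 388 with 3x under isotype, and to 491 to 505, 762 and 911, 761 and 775, and 675 and 722 CPM in the same order under MHC II block. Every WT IL-2 and H16R library was thus above both PBS libraries of its arm. Summed myeloid markers were 41.5 and 43.3 CPM in MHC II block PBS Tcons and 356 and 577 CPM in MHC II block WT IL-2 Tcons, 144 and 157 with H16R and 201 and 206 with 3x in that arm, while under isotype they were 125 and 141 CPM with PBS, 61.5 and 86.0 with WT IL-2, 41.3 and 43.4 with H16R and 44.5 and 64.7 with 3x. Summed B cell markers, in the order PBS, WT IL-2, H16R, 3x, were 900.2 and 1024, 222 and 341, 159 and 212, and 357 and 451 CPM under isotype, and 154 and 160, 267 and 341, 164 and 287, and 144 and 176 CPM under MHC II block. NK markers were 80.2 and 80.6, 72.7 and 109.6, 114 and 123, and 93.0 and 115 CPM under isotype, and 43.8 and 49.1, 105 and 162, 112 and 126, and 93.1 and 96.6 CPM under MHC II block. CD8 T cell markers were 18.5 and 26.2, 20.4 and 24.1, 11.4 and 15.7, and 14.7 and 15.5 CPM under isotype, and 6.91 and 7.54, 25.6 and 75.6, 17.4 and 32.5, and 16.8 and 24.9 CPM under MHC II block. Treg markers summed to 446 and 505, 585 and 1448, 727 and 738, and 492 and 651 CPM under isotype in that order of treatments. Under MHC II block they summed to 548 and 570, 343 and 443, 544 and 546, and 456 and 473 CPM. The B cell sum was thus lower in every treated than in either PBS library under isotype, whereas under MHC II block the NK and CD8 T cell sums were higher in every treated library. Their part in the result was not tested.

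These Tcon counts rested on few libraries. For WT IL-2 they were 10 and 9 without isotype PBS replicate 1 or 2, 5 without either MHC II block PBS replicate, 3 and 28 without isotype WT IL-2 replicate 1 or 2, and 5 and 11 without MHC II block WT IL-2 replicate 1 or 2. For H16R they were 7 and 8 without isotype PBS replicate 1 or 2, 4 without either MHC II block PBS replicate, 4 and 10 without isotype H16R replicate 1 or 2, and 9 without MHC II block H16R replicate 1. For 3x they were 0 or 1 without any single PBS or 3x library.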

How the data were processed

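Spleen Tregs (32 libraries) and Tcons (16 libraries) were profiled by stranded poly(A) RNA-seq. The authors aligned reads with OSA to mouse B38 and deposited estimated counts and FPKM per gene from the Omicsoft form of RSEM; 72.8% of nonzero counts were whole, and 0 columns belonged to other samples. Deposited tables of the authors' DESeq2 1.30.1 comparisons (fold changes, p-values, test statistics) were not used.

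Estimated counts were rounded and tested with edgeR 4.0.16 (quasi-likelihood, TMM, R 4.3.3) where CPM was above 0.5 in at least 4 fitted libraries, the gene was protein-coding in GENCODE vM21 (96.6% of symbols found) and no fitted library had an empty cell. All 32 Treg libraries shared 1 model of 8 groups; Treg against Tcon used the 16 mice as a block; Tcons used the antibody arm as a term. Ratios used exact permutation tests. Every member could be named; other genes came from lists. Members and lists were chosen with earlier results of these data known. Each library was made from 1 mouse, and 16 mice gave both a Treg and a Tcon library. Depth limits low genes: counting error is smallest where totals are largest. Scripts were tested on simulated data. DESeq2 1.42.0, limma 3.58.1 on log2(FPKM + 1), other filters and scalings, the replicate number as a block and leaving out libraries were tried. Treg and Tcon libraries of a mouse, paired by the labels' mouse number, deviated together (correlation 0.30, 0.15 to 0.55 in 16 pairs). Results of some listed genes are not reported here.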

Additional observations from a re-analysis of the deposited data

Results flagged for a closer look

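Of 168 groups of 4 Treg libraries checked for a library far from the other 3, 13 had one by Dixon's criterion (gap over range above 0.829), and chance flags about 1 in 20. In CPM these were Psmb5 in isotype WT IL-2 replicate 1 (53.6 against 50.7 to 51.0), Psmb8 in isotype PBS replicate 4 (244.1 against 299.2 to 308.8), isotype H16R replicate 3 (328.6 against 300.5 to 304.4) and MHC II block 3x replicate 2 (337.3 against 383.8 to 386.5), Psmd5 in isotype H16R replicate 3 (38.2 against 35.0 to 35.3), Psmd8 in MHC II block 3x replicate 2 (162.7 against 187.3 to 192.4), Psme1 in MHC II block PBS replicate 3 (317.5 against 332.5 to 334.2) and Psme2 in MHC II block WT IL-2 replicate 2 (238.3 against 201.2 to 204.3). In summed FPKM they were the alpha subunits in isotype 3x replicate 1 (526.4 against 480.7 to 482.5), the beta subunits in MHC II block 3x replicate 2 (661.0 against 771.6 to 788.5), the immunosubunits in isotype WT IL-2 replicate 3b (355.5 against 370.7 to 372.1) and the activators in MHC II block WT IL-2 replicate 2 (611.3 against 540.7 to 548.6). The ratio of Psmb9 to Psmb6 in MHC II block PBS replicate 1 was 1.06 against 1.00 to 1.01 in the others.

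Effects that differed between groups by a test of the difference itself (edgeR interaction terms) were 1 member between the antibody arms for WT IL-2, 19 for H16R, 30 for 3x, and 10 for the Treg minus Tcon difference between IL-2 and PBS mice. For WT IL-2 this was Psme2 (-0.29, log2). For H16R it included Psmb10 (0.31), Psmb8 (0.25), Psmc1 (0.31), Psmd13 (0.23) and Psme2 (0.31), of which Psmb8 and Psmd13 were lost when certain single libraries were left out (highest adjusted p = 0.14 and 0.22). For 3x it included Psma4 (0.24), Psmb10 (0.36), Psmb5 (0.48), Psmb8 (0.28), Psmc1 (0.43), Psmd13 (0.37), Psmd8 (0.34) and Psme2 (0.38). For Treg minus Tcon it included Psma4 (0.30), Psmb9 (0.18), Psmd13 (0.27) and Psme2 (0.33), and all but Psme2 were lost without some single mouse (highest adjusted p = 0.17, 0.24 and 0.19).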

How the results depend on the processing

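Counts are members called. Fitting only the compared groups gave 15 for 3x against PBS under isotype, 0 and 16 for the antibody in PBS and WT IL-2 mice, and 5 and 8 for 3x against H16R under isotype and MHC II block. DESeq2 gave 11 for the antibody in WT IL-2 mice and 4 for 3x in Tcons. All biotypes gave 4 for WT IL-2 under MHC II block, 12 for the antibody in WT IL-2 mice and 6 for 3x against WT IL-2 under isotype; without the CPM filter these were 5, 12 and 6, the antibody in PBS mice gave 0, and Treg minus Tcon by IL-2 gave 6. limma gave 1 for H16R against WT IL-2 under isotype and 2 for the WT IL-2 interaction. Scaling by total counts gave 2 for H16R against WT IL-2 under isotype and 10 for WT IL-2 in Tcons, and turned Psmd4 in Tregs against Tcons, called higher, to -0.0029. Without both libraries that stood apart, WT IL-2 under MHC II block gave 5 and the interactions 5 for WT IL-2 and 12 for H16R. The cause was not tested. No other count moved by over 1.5 times under these settings.

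The replicate numbers did not pair Treg libraries of different groups (mean correlation of deviations 0.0057 over 112 pairs; 11 of 32 libraries correlated best with their own number). With the replicate block, H16R against WT IL-2 under isotype gave 1, the 3 molecules against PBS gave 17, 21 and 23 under isotype and 9, 35 and 36 under MHC II block, and no other count moved by over 1.5 times.

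Leaving out 1 library, WT IL-2, H16R and 3x gave 14 to 18, 17 to 21 and 20 to 25 under isotype and 4 to 8, 31 to 35 and 34 to 36 under MHC II block. MHC II block against isotype gave 0 to 3 with PBS, 4 to 9 with WT IL-2, 18 to 35 with H16R and 31 to 37 with 3x, and the interactions 1 to 3, 10 to 32 and 28 to 35. H16R against WT IL-2, 3x against WT IL-2 and 3x against H16R gave 0 to 1, 5 to 9 and 0 to 4 under isotype and 34 to 36, 36 to 40 and 7 to 22 under MHC II block. Treg against Tcon gave 26 to 28, its IL-2 difference 5 to 12, and Tcons 3 to 28, 4 to 19 and 0 to 1. Depth limits the isotype PBS group most (18.28 M of estimated counts at the lowest).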
